A study of Mus musculus with 5 samples.

Results

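The genes described here are TCF/LEF transcription factor genes and other factors of exit from naive pluripotency, followed through the guides that target them in a pooled CRISPR screen of mouse embryonic stem (ES) cells. They were taken by gene name alone, from a rule of 9 names, and 8 of these were in the library of 1682 genes: Tcf7l1, Tcf7, Tcf7l2, Lef1, Tfe3, Zfp281, Rbpj and Otx2, which the files list in capitals (TCF7L1, TCF7, TCF7L2, LEF1, TFE3, ZFP281, RBPJ and OTX2). Zfp706 was not analysed here. Each gene had 10 guides, and 70 of these 80 guides had at least 30 reads in each plasmid library and were kept. The more cells of the pool carry a guide, the larger is its share of the reads.

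Guides were read from the plasmid stock of the library (2 libraries) and from cells 5, 8 and 12 days into the screen (1 library each); the titles count these days from transduction and the protocol from selection. The genotype is given as Ainv15(iNgn2 Tubb3::GFP) throughout. The treatment label is none, and the cells were kept in ES cell medium with Zeocin, which selects for the guide vector, at every time point. The labels give the plasmid libraries the same genotype and cell type as the cells, so they were recognised by their titles. No library of cells without guides was used, and 1000 non-targeting guides within the pool are the controls. Guide DNA shows no expression, so neither the ES cell label nor the loss of any protein could be checked.

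Naive ES cells keep themselves in an early embryonic state and pass through a formative state before they take up a lineage. TCF/LEF proteins bind the same DNA motif and are partners of beta-catenin, the effector of Wnt signalling; Tcf7l1 acts mainly as a repressor of naive genes, and beta-catenin relieves that repression. Zfp281, Rbpj and Otx2 are known as factors that help cells to leave the naive state. Tfe3 holds cells in the naive state while it is in the nucleus, and its removal from the nucleus allows exit.

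The guides on which the results turn are printed 5′ to 3′. The first set holds single guides that stood far from the others of their gene, and guides that carried a gene's summed reads; capitals mark the 10 bases next to the PAM, the short motif in the genome that Cas9 needs beside its target.
Tcf7l1 guide 1: agttacggtgAAGAAGGAAG
Tcf7l2 guide 6: gagccctccaTCTTGCCTCT
Otx2 guide 7: cccggaaacaGCGAAGGGAG
Otx2 guide 5: cttataatccAAGCAATCAG
Zfp281 guide 2: accatatggaGAGACACAAG
Zfp281 guide 7: gctgcactgaTCGCACCCAA
Zfp281 guide 5: ggatgaaaccCATACTACAC
Rbpj guide 6: ctactcggagGGCTTGTCCG
Rbpj guide 9: cgaaattattTAAAAGAACG

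The second set holds pairs of guides to overlapping targets, which show how far guides to nearly the same site differ. Capitals mark the bases a pair shares, read on the other strand for the pairs of Tcf7, Tcf7l2 and Rbpj.
Tcf7 guide 5: TGTAAAGCATGAACGCAttg
Tcf7 guide 8: TGCGTTCATGCTTTACAtga
Tcf7 guide 1: TGTGCACTCAGCAATGacct
Tcf7 guide 4: CATTGCTGAGTGCACActca
Tcf7l2 guide 1: gaccaGCGAGGACTTGACAT
Tcf7l2 guide 7: agccgATGTCAAGTCCTCGC
Tfe3 guide 5: agacACGCCAATCACAGAGA
Tfe3 guide 8: ACGCCAATCACAGAGAtggc
Rbpj guide 2: GGGGACGTACGTGGAGACTg
Rbpj guide 7: AGTCTCCACGTACGTCCCCg
Otx2 guide 6: ggtacccAGACATCTTCATG
Otx2 guide 8: AGACATCTTCATGagggaag

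Plasmid library 1 held 3541896 reads, plasmid library 2 held 1350234, and the cell libraries held 1008492 to 1082489. The median kept guide to these genes was read 172 times in plasmid library 1, 61 times in plasmid library 2, and 49 to 55 times in the cells. The plasmid libraries gave the same gene median to within an SD of 0.12 log2 units over all genes, and single guides to within an SD of 0.29. Levels are given as RPM, the reads of a library rescaled to a common total with TMM factors. A guide's change is log2 of its level plus 1 over the mean plasmid level plus 1, and a gene's change is the median over its kept guides, given with the SD over those guides. With 1 library per time point a change has no replicate check and no p. Reads are not separate cells, so intervals on reads cover counting error only.

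The comparisons of each day with the plasmid pool ask whether cells carrying these guides were lost or gained. None of the 8 genes moved by 2-fold at any day. At days 5, 8 and 12, 6.3%, 12.1% and 15.8% of all genes lay past 2-fold below the plasmid level, and 0.0595%, 0.178% and 1.19% past 2-fold above it. The medians of the 8 genes ran from -0.08 to 0.28 at day 5, from -0.23 to 0.57 at day 8 and from -0.50 to 0.47 at day 12. Their middle at day 12 was 0.12, against 0.0090 over all genes and 0.58 over the non-targeting guides. All 8 genes lay below the median control guide at days 5 and 12, while 4.34% and 6.24% of all genes lay above it. At day 8 Tcf7l1 and Tcf7 lay just above the control median of 0.54, by 0.04 and 0.0013, where 3.98% of all genes did.

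**Figure D1:**
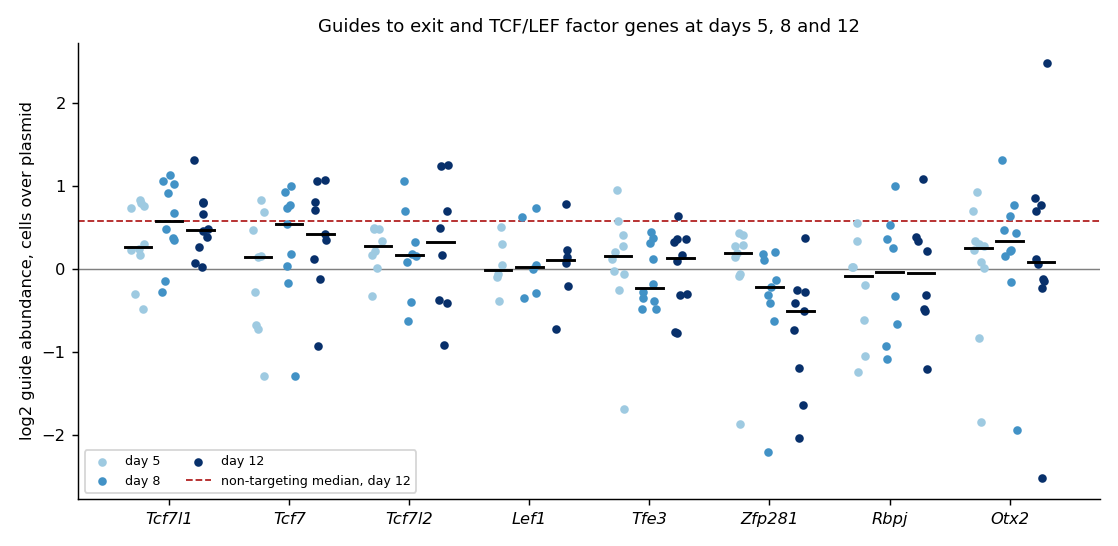
Change of each kept guide (points) on the log2 scale at days 5, 8 and 12 over the mean of the plasmid libraries, by gene; black bars are medians over guides and the dashed line is the non-targeting median at day 12 (0.58). At day 12 the 10 Tcf7l1 guides all sit above 0, and 4 of them above the dashed line. Of the Zfp281 guides 8 of 9 sit below 0, and the Otx2 guides run from -2.52 to 2.47.

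A slope over days could be tested because it uses all 5 libraries. Reads were summed over the kept guides of each gene and fitted with the quasi-likelihood test of edgeR, plasmid at day 0, with 3 residual degrees of freedom and Benjamini-Hochberg adjustment over 1682 genes. "Rose" and "fell" are used below for genes past an adjusted p of 0.05 in this test, relative to the typical guide. The spread it uses is that of the plasmid pair and of departures from a straight course, not that of replicate cultures, and it called much of the library: 34.7% of genes rose and 25.2% fell. Of the 8 genes 4 rose (Tcf7l1, Tcf7, Tcf7l2 and Otx2) and none fell; the DESeq2 Wald test called the same number in each direction. With the libraries scaled to the non-targeting guides in place of TMM, which moved the median of all genes by -0.65 at day 12, none of the 8 rose and 4 others fell (Lef1, Tfe3, Zfp281 and Rbpj), while 1.07% of all genes rose and 72.2% fell.

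**Figure D2:**
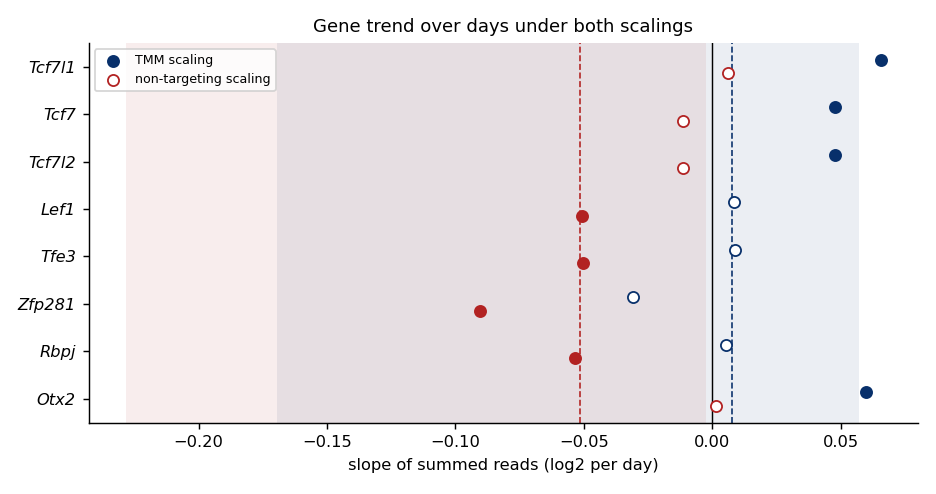
Slope of each gene's summed reads in log2 units per day under TMM scaling (blue) and non-targeting scaling (red); filled points are past an adjusted p of 0.05, bands hold the middle 90% of all genes and dashed lines are their medians. The slopes run from -0.031 to 0.066 under TMM scaling and from -0.091 to 0.0062 under non-targeting scaling.

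Among the TCF/LEF genes, Tcf7l1, the repressor of naive genes (chromosome 6, 72626371 to 72789045, GRCm38), had the highest medians at days 8 and 12. Its guides summed to 629.5 and 704 RPM in plasmid libraries 1 and 2, and to 906, 1066 and 1089 at days 5, 8 and 12. Each cell library was above both plasmid libraries, and the 95% counting intervals of day 12 (1022 to 1159) and of plasmid library 2 (659 to 750.1) did not meet. The gene median was 0.27, 0.57 and 0.47 at days 5, 8 and 12 (SD 0.46, 0.50 and 0.38 over 10 guides). At day 12, 10 of 10 guides lay above 0, but only 4 lay above the non-targeting median of 0.58 and 6 lay below it. After correction for the GC content of guides the gene median was -0.0097, 0.47 and 0.25, below that of Tcf7 at each day. Against plasmid library 1 alone the day 5 gene median was 0.45. With at least 100 reads in each plasmid library the day 12 median was 0.44, below those of Tcf7l2 (0.83) and Tcf7 (0.76). That filter left only guides 1, 7 and 9 of Tcf7l1, guides 6 and 9 of Tcf7l2 and guides 1, 3, 4, 5 and 7 of Tcf7. At day 8, 97.2% of genes had a lower median, and at day 12, 87.5%. The slope was 0.066 log2 units per day (edgeR adjusted p = 0.000923), or 0.0062 with non-targeting scaling (edgeR adjusted p = 0.54).

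Tcf7l1 guide 1 carried the largest part of these reads, with 484 and 231 reads in the plasmid libraries and 289, 334 and 356 at days 5, 8 and 12. It stood at 1.31 at day 12, the highest of the gene, while the other 9 guides ran from 0.03 to 0.81. Without it the slope was 0.046 (edgeR adjusted p = 0.00416), and leaving out any of the 10 guides in turn kept the call. This guide and Otx2 guide 7 and Tcf7l2 guide 6 were the 3 of the 70 guides that rose under non-targeting scaling as well.

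Tcf7, also called TCF-1, a TCF factor best known from T cell development (chromosome 11, 52246527 to 52283383), summed to 721 and 732 RPM in the plasmid libraries and to 806, 951 and 1077 at days 5, 8 and 12. Its level was higher at each later time point, and day 12 stood clear of both plasmid libraries. The median over 9 guides was 0.14, 0.54 and 0.42 at days 5, 8 and 12 (SD 0.72, 0.72 and 0.64). The slope was 0.048 (edgeR adjusted p = 0.00103), and -0.011 under non-targeting scaling (edgeR adjusted p = 0.36). After the GC correction the day 12 median was 0.69, above that of 97.2% of genes. The Tcf7 guides split widely: guides 3 and 4 ended at 1.07 and 1.06, and guide 8 at -0.92.

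Tcf7l2, a TCF factor that can activate Wnt targets (chromosome 19, 55741797 to 55933659), summed to 490.4 and 517 RPM in the plasmid libraries and to 628, 661 and 744 at days 5, 8 and 12. All cell libraries were above both plasmid libraries. The median over 8 guides was 0.28, 0.16 and 0.33 (SD 0.28, 0.54 and 0.79), so the spread between guides widened as the days went on. The slope was 0.048 (edgeR adjusted p = 0.000778) and -0.011 under non-targeting scaling (edgeR adjusted p = 0.28). The call rested on guide 6, which had 355 and 128 plasmid reads and 144, 218 and 218 reads at days 5, 8 and 12; without it the slope was 0.026 and edgeR's adjusted p 0.0595.

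Lef1, the lymphoid enhancer factor of this family (chromosome 3, 131110297 to 131224357), stayed nearest to its plasmid level of the TCF/LEF genes. Its 6 kept guides summed to 403 and 383 RPM in the plasmid libraries and to 390.3, 410.5 and 423 at days 5, 8 and 12, and the counting intervals of all 5 libraries overlapped. The median was -0.0095, 0.02 and 0.11 (SD 0.31, 0.45 and 0.50). The slope of 0.0083 did not pass (edgeR adjusted p = 0.53), with a counting interval of -0.07 to 0.25 for the log2 ratio of summed reads at day 12 over plasmid. Relative to the control guides it was -0.051 per day (edgeR adjusted p = 0.0166).

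**Figure D3:**
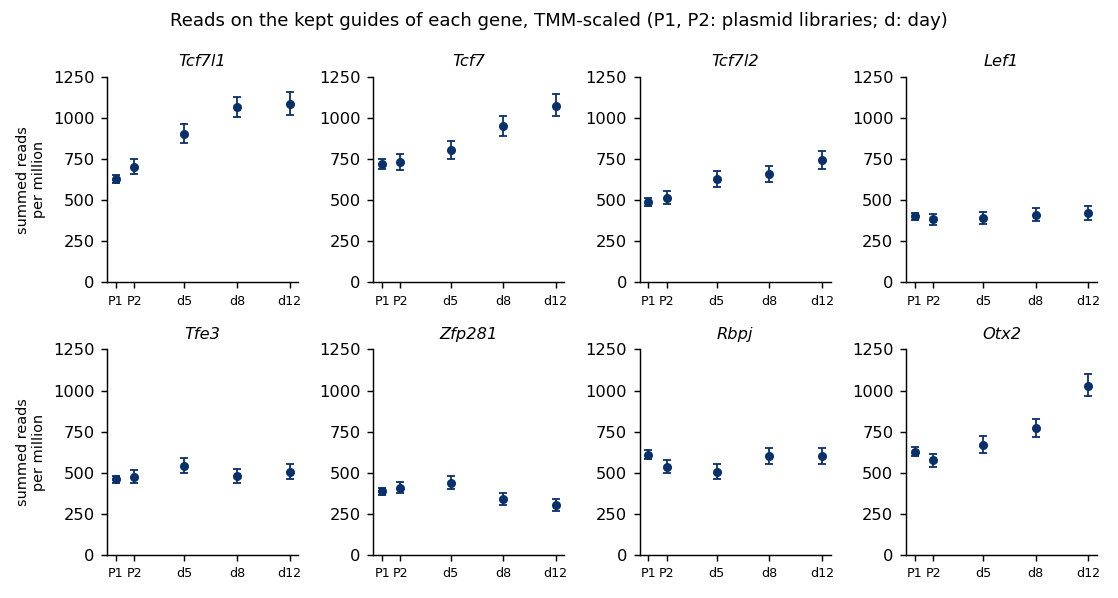
Reads summed over the kept guides of each gene, in TMM-scaled RPM, in plasmid libraries 1 and 2 and at days 5, 8 and 12; bars are exact 95% Poisson intervals for counting error. Tcf7l1, Tcf7 and Otx2 end above 1000 at day 12, and Zfp281 ends at 302, below both plasmid libraries.

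Of the other exit factors, Zfp281, a zinc-finger factor of the passage from naive to primed pluripotency (chromosome 1, 136624901 to 136630391), had the lowest median of the 8 at day 12. Its guides summed to 386 and 409.5 RPM in the plasmid libraries and to 439, 339.9 and 302 at days 5, 8 and 12. The sum at day 5 lay above both plasmid libraries and those at days 8 and 12 below, and the counting interval of day 12 (267 to 339.6) met neither plasmid interval. The median over 9 guides was 0.19, -0.22 and -0.50 (SD 0.71, 0.74 and 0.75); against plasmid library 1 alone the day 5 median was 0.0022, and with at least 100 reads in each plasmid library, which left guide 1 only, the day 12 median was 0.32. Of the 9 guides, 3 were below 0 at day 5, 6 at day 8 and 8 at day 12.

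At day 12, 23.8% of genes had a lower median than Zfp281. The change from day 5 to day 12 was -0.55 (SD 0.58), with 8 of 9 guides below 0; over all genes 7.02% lay past 2-fold lower in that interval and 0.832% past 2-fold higher. None of the 8 genes did. The slope of Zfp281 over all libraries was -0.031 and did not pass (edgeR adjusted p = 0.106). Under non-targeting scaling it was -0.091 (edgeR adjusted p = 0.00153), the lowest of the 8, and the day 12 median then passed 2-fold, at -1.14.

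The Zfp281 guides changed unevenly. Guide 2 had 113 and 48 plasmid reads and 9, 7 and 7 reads at days 5, 8 and 12, a change of -1.87 at the first time point and -2.03 at the last. Guide 7 had 170 and 49 plasmid reads and 51, 36 and 12 reads at days 5, 8 and 12, so it was near its plasmid level at day 5 and ended at -1.64. Guide 5 had 28, 19 and 11 reads at these days and ended at -1.19. Guide 1 was the only guide above 0 at day 12, at 0.37, and it held 298 of the 1337 plasmid reads of the gene in library 1. Without guide 1 the slope was -0.055 and passed (edgeR adjusted p = 0.0441); without guide 2 it was -0.022 (edgeR adjusted p = 0.29).

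Tfe3, a bHLH factor of lysosomal gene control that is moved out of the nucleus at the exit from the naive state (chromosome X, 7762530 to 7775202), summed to 459 and 475 RPM in the plasmid libraries and to 543.5, 478 and 506 at days 5, 8 and 12. The levels at days 8 and 12 had counting intervals that met those of both plasmid libraries. The median over 10 guides was 0.16, -0.23 and 0.13 (SD 0.70, 0.37 and 0.49), above 0 at day 5 and below it at day 8. The sign at day 12 depended on the plasmid library: the median was -0.10 against library 2 alone and 0.30 against library 1 alone. The slope of 0.0090 did not pass (edgeR adjusted p = 0.47), and it was -0.050 under non-targeting scaling (edgeR adjusted p = 0.00567).

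Rbpj, the DNA-binding partner of Notch (chromosome 5, 53555779 to 53657445), summed to 610.2 and 536 RPM in the plasmid libraries and to 506, 601 and 601 at days 5, 8 and 12. The level was lowest at day 5, and no cell library was above plasmid library 1. The median over 8 guides was -0.08, -0.04 and -0.05 (SD 0.64, 0.75 and 0.71), with 4 guides above 0 and 4 below at each day. The slope of 0.0052 did not pass (edgeR adjusted p = 0.68), and under non-targeting scaling it was -0.054 (edgeR adjusted p = 0.0122). Without guide 9 the slope under TMM scaling was 0.024, with an edgeR adjusted p of 0.0452.

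Some of the Rbpj guides could be placed on the genome. A search of the RefSeq windows around gene starts (for Rbpj chr5:53590096-53590395 and chr5:53590236-53590535) found 5 of the 10 Rbpj guides there and none of the other 70 guides to the 8 genes; of 13000 guides whose gene had such a window, 0.192% lay in it. Guides 1, 2 and 7 matched chr5:53590357-53590376, chr5:53590368-53590387 and chr5:53590369-53590388, guides 5 and 6 matched chr5:53590421-53590440 and chr5:53590433-53590452 (GRCm38.p6), and each had an AGG or CGG PAM there. Guides 5, 6 and 7 lie on the plus strand and guides 1 and 2 on the minus strand, between annotated Rbpj starts at 53590346 and 53590486. No exon boundaries were in the tables used here.

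At day 5 the 5 guides near these starts ran from -0.19 to 0.56 and the other 3 kept guides from -1.23 to -0.61. At day 8 the ranges were -0.33 to 1.00 and -1.09 to -0.66, and at day 12 they were -0.50 to 1.09 and -1.21 to -0.31, which overlapped. Guide 8, outside the windows and left out for its 25 reads in plasmid library 2, did not follow the split: it had 15.9 and 18.7 RPM in the plasmid libraries and 25.05, 17.2 and 14.2 RPM at days 5, 8 and 12. Guide 4, also outside the windows and left out, had 52 and 17 plasmid reads and 0, 1 and 0 reads at these days. The 5 guides hold 11 to 13 G and C bases, the other 3 kept guides hold 5 to 9, guide 8 holds 11 and guide 4 holds 9. After the GC correction the ranges were -0.25 to 0.28 and -0.56 to -0.39 at day 5, -0.59 to 0.73 and -0.71 to -0.20 at day 8, which overlapped, and -0.78 to 0.81 and -0.48 to -0.00030 at day 12. This split was made after the values were seen, and position and GC content cannot be told apart in these 8 guides.

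Otx2, a homeobox factor that directs the enhancers of the formative state (chromosome 14, 48656781 to 48667644), summed to 629 and 574 RPM in the plasmid libraries and to 669.7, 771 and 1030 at days 5, 8 and 12. Day 12 was above every other library, yet the median over 10 guides was 0.26, 0.33 and 0.09 (SD 0.80, 0.85 and 1.25). Against plasmid library 1 alone the day 5 and day 12 medians were 0.08 and 0.03, and against library 2 alone 0.34 and 0.21. Guide 7 held most of the added reads. It had 326 and 127 plasmid reads and 187, 248 and 486 reads at days 5, 8 and 12, and stood at 2.47 on the log2 scale at day 12, while the next guide stood at 0.86.

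The slope of the summed Otx2 reads was 0.060 (edgeR adjusted p = 0.000753), and without guide 7 it was 0.00050 (edgeR adjusted p = 0.96), so the rise rested on that guide. Guide 5 went the other way, with 437 and 161 plasmid reads and 35, 33 and 19 reads at days 5, 8 and 12, a change of -1.84 by day 5 and -2.52 by day 12. Without guide 5 the slope was 0.087 (edgeR adjusted p = 6.17e-05). These guides were the highest and the lowest of all 70 at day 12. Guide 7 holds 13 G and C bases and guide 5 holds 7; after the GC correction they stood at 2.20 and -2.04.

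Guide by guide, 16 of the 70 kept guides rose and 5 fell in the same test run on single guides, with adjustment over 15336 guides. Over all guides to genes 16.1% rose and 24.0% fell, and over the non-targeting guides 45.5% rose and 4.82% fell. The 16 were 4 guides each of Tcf7l1 and Tcf7, 3 of Otx2, 2 of Tcf7l2 and 1 each of Lef1, Tfe3 and Rbpj. The 5 were 2 of Zfp281 and 1 each of Tcf7, Rbpj and Otx2. At day 12, 5 of the 70 guides lay past 2-fold below the plasmid level and 7 past 2-fold above it, where 21.5% and 7.39% of all guides to genes did. Under non-targeting scaling 3 rose and 23 fell, against 2.49% and 48.9% of all guides to genes.

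Guides of 1 gene share a target and are not replicates, and several share most of their site. Among the 8 genes 19 pairs of guides shared 11 or more bases, and in 16 of them both guides were kept. Their day 12 changes differed by a median of 0.40 (0.00090 to 1.27), against 0.65 over all 278 pairs of kept guides to the same gene; these pairs share guides, so no test was made. The widest was Tcf7 guides 5 and 8, whose 17 shared bases put their cuts 17 bases apart and which ended at 0.34 and -0.92. Tcf7l2 guides 1 and 7, cutting 9 bases apart, ended at 0.69 and -0.41, and Otx2 guides 6 and 8, cutting 7 bases apart, at -0.23 and 0.86.

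Other overlapping pairs ended close together. Rbpj guides 2 and 7, with 19 shared bases, ended at 0.38 and 0.21, and Tcf7 guides 1 and 4 at 0.81 and 1.06. Tfe3 guides 5 and 8, cutting 4 bases apart, differed by -2.64 log2 units (guide 5 minus guide 8) at day 5, with 8 and 55 reads, and by -0.0061 at day 8, with 20 reads each. Guide 5 had 84 and 40 plasmid reads and guide 8 had 78 and 42. The cause of their day 5 difference was not tested.

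Base composition moved with the change of a guide. Across the non-targeting guides each further G or C base went with 0.13 log2 units at day 5, 0.12 at day 8 and 0.13 at day 12. Across the 70 guides, which are of 8 genes in shared libraries, Pearson's r between the number of G and C bases and the change was 0.50 at day 5 and 0.33 at day 12 (Spearman's rho 0.40 and 0.24). After the GC correction the day 12 medians were 0.69 for Tcf7, 0.25 for Tcf7l1, 0.24 for Otx2, 0.13 for Tfe3, 0.12 for Tcf7l2, 0.03 for Lef1, -0.03 for Rbpj and -0.55 for Zfp281. Zfp281 was the lowest of the 8 at day 12 before and after it. None of the 8 genes passed 2-fold at any day after the correction. The part of base composition in the slopes was not tested.

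**Figure D4:**
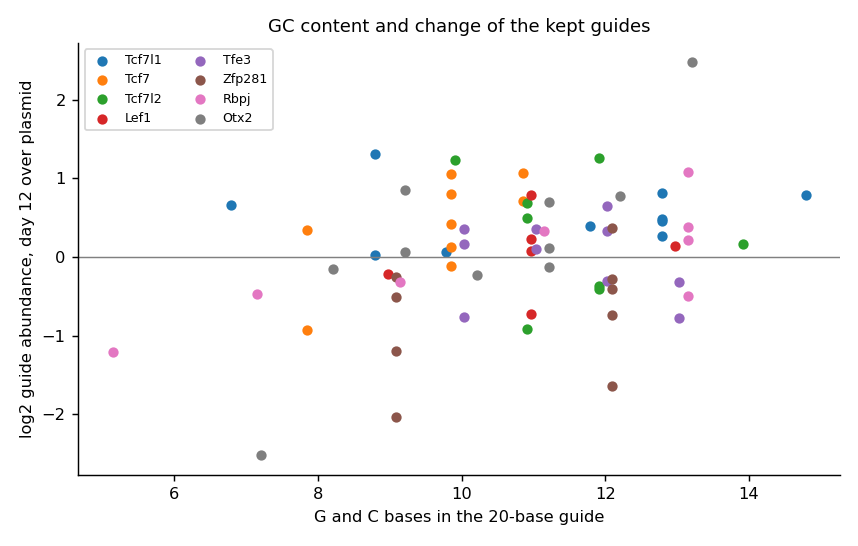
Number of G and C bases in each kept guide against its log2 change at day 12 over plasmid, colored by gene; points are shifted sideways by gene so that they can be told apart. Otx2 guides 7 and 5, at 13 and 7 bases, are the highest and the lowest points.

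In order of the day 12 median the 8 genes ran Tcf7l1 (0.47), Tcf7 (0.42), Tcf7l2 (0.33), Tfe3 (0.13), Lef1 (0.11), Otx2 (0.09), Rbpj (-0.05) and Zfp281 (-0.50). Each step between neighbours was smaller than the SD over the guides of either gene. The genes with the most similar medians over days 5, 8 and 12, by Euclidean distance over these 3 values, included Barhl1 and Olig1 for Tcf7l1 (distance 0.053 and 0.081), Trim24, Fosb and Srf for Zfp281 (0.0345 to 0.115) and Ss18l1, Mta3 and Cers4 for Tcf7 (0.024 to 0.084). For Otx2 they were Nfatc1, Tsc22d1 and Foxh1, for Rbpj Zfp867, Xbp1 and Mllt1, for Tfe3 Zfp324, Cbx6 and Foxj3, for Lef1 Trim32, Pou2f3 and Tgfb1i1 and for Tcf7l2 Meis2, Ahr and Brdt. With 3 values and 1682 genes such neighbours are easily found.

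Genes that work with the 8 were taken from lists of their partners, relatives and targets, and the slope of each is given per day under TMM scaling. Of 10 TCF/LEF partners and Wnt genes, with a median of 0.18 at day 12 against 0.0090 over all genes, 7 rose, 1 fell and 2 did not pass; over all genes 34.7% rose and 25.2% fell. The gene that fell was Ctnnb1, which codes for beta-catenin, with a slope of -0.042 (edgeR adjusted p = 0.0105), a day 12 median of -0.66 and 9 of 10 guides below 0. Under non-targeting scaling its slope was -0.103 (edgeR adjusted p = 0.00011). The 7 that rose were Tbx3 (0.066), Pygo2 (0.064), Ctbp1 (0.042), Tle3 (0.039), Sox17 (0.031), Tle6 (0.030) and Tle2 (0.021), and none of them rose under non-targeting scaling. Under that scaling 6 of the 10 fell, Tle2, Tle6 and Sox17 among them, as did 72.2% of all genes. Tbx3 had the highest day 12 median of the list, at 0.77, and that of Tle3 was -0.04 although its summed reads rose.

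Of the MiT relatives of Tfe3, Tfeb rose (0.037) and Mitf and Tfec did not pass, with day 12 medians of 0.52, -0.25 and -0.02. Tfeb had 5 kept guides, of which 2 lay below 0 at day 12 (SD 1.17), and its median was already 0.58 at day 5. Of 4 partners and relatives of Zfp281, Nanog, a core pluripotency factor, fell (-0.179), with a day 12 median of -1.76. The close paralog Zfp148 (-0.013), Dnmt3a (-0.0018) and Myc (0.0082, with the highest day 12 median of the list at 0.09) did not pass. Over all genes 34.7% rose and 25.2% fell. Under non-targeting scaling 2 of the 3 MiT genes and all 4 partners and relatives of Zfp281 fell, as did 72.2% of all genes.

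Of 11 Notch nuclear factors 5 rose, 1 fell and 5 did not pass, against 34.7% and 25.2% of all genes that rose and fell. Under non-targeting scaling 1 rose and 7 fell, where 1.07% of all genes rose and 72.2% fell. Spen, a corepressor that binds Rbpj, had a slope of 0.134 and a day 12 median of 1.51 with 9 of 9 guides above 0; it also rose under non-targeting scaling (0.075, edgeR adjusted p = 0.00679). Others that rose were the coactivator Maml3 (0.045) and the Notch targets Hey1 (0.043) and Hes1 (0.022), and Ncor1 (-0.038) fell. Kdm5a had the lowest day 12 median, -0.75, and did not pass (edgeR adjusted p = 0.087).

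Of 12 formative and primed factors 5 rose, 4 fell and 3 did not pass, where 34.7% of all genes rose and 25.2% fell. Under non-targeting scaling 7 fell, where 72.2% of all genes did. Among the 4 that fell under TMM scaling were Foxd3 (-0.129), Etv5 (-0.127) and Zic2 (-0.036), and the day 12 median of Etv5 was -1.68. Those that rose were Sox3 (0.065), Lin28a (0.052), the Otx2 relative Otx1 (0.038), Etv4 (0.036) and Foxp1 (0.029), none of which rose under non-targeting scaling. Lin28a had the highest day 12 median, 0.69.

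Of 13 naive and core factors, the network that Tcf7l1 acts on, 8 fell, 3 rose and 2 did not pass, beside 25.2% of all genes that fell and 34.7% that rose; 9 fell under non-targeting scaling, where 72.2% of all genes did. Those that fell were Pou5f1 (-0.230), Nr0b1 (-0.165), Stat3 (-0.155), Klf2 (-0.105), Tfcp2l1 (-0.077), Klf4 (-0.077), Klf5 (-0.062) and Sox2 (-0.042). The day 12 medians of Nr0b1, Klf2, Pou5f1, Stat3 and Klf5 were past 2-fold, from -2.09 to -1.15. Those that rose were Prdm14 (0.10, with a day 12 median of 1.58), Tbx3, which is also in the first list, and Esrrb (0.044, with a day 12 median of -0.16); none rose under non-targeting scaling. The median of this list was -0.69 at day 12, while that of the 8 exit and TCF/LEF genes was 0.12.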

How the data were processed

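Guide reads were counted in 5 libraries of genomic or plasmid DNA. Per the file headers, the deposited files give 1 unnormalized read count for each guide. The submitters' processing notes list cutadapt, Bowtie, featureCounts and mm10 but no tool version, and how guide reads were matched is not given in the sources used here. Of 17820 guides, 15336 with at least 30 reads in each plasmid library were kept (14443 to genes, 893 non-targeting). Counts were scaled with TMM factors of edgeR 4.0.16 (R 4.3.3), and log2 changes used a pseudocount of 1 RPM (reads rescaled to a common total). Slopes over days were tested with edgeR's quasi-likelihood test on guide counts and on counts summed per gene, adjusted over all rows. The procedure was also run on simulated counts with straight slopes and no effect of base composition, unlike these data. The outcome of that run is not given here. DESeq2 1.42.0, other scalings, filters and left-out libraries were alternatives. Chromosomes and positions are those of RefSeq genes on GRCm38.p6.

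Counts of the plasmid pair differed beyond sampling noise (chi-square over degrees of freedom 2.21), so they count as 2 libraries; the labels do not say whether they are separate preparations, so their spread may be technical. The genes, lists and tests were chosen with earlier results of these data known. Genes were named by a rule: the 8 genes, their 3 nearest genes, and from each list the extremes, those past 2-fold and those called; a few genes the rule takes are not reported here. Non-targeting guides were left out of sums per gene. Guides are numbered 1 to 10 in library order.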

Additional observations from a re-analysis of the deposited data

How the results depend on the processing

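The choice of scaling decided most calls. With non-targeting totals in place of TMM, 0 of the 8 genes rose and 4 fell, 3 guides rose and 23 fell, and 1 gene (Zfp281) passed 2-fold; over all genes 18 rose and 1215 fell, against 584 and 424 with TMM. The slopes of Tcf7 (-0.011), Tcf7l2 (-0.011), Lef1 (-0.051), Tfe3 (-0.050) and Rbpj (-0.054) then changed sign. So did the median slope over all genes, from 0.0078 with TMM to -0.051, so the change of sign is not particular to these genes. Why the 2 scalings differ was not tested. With the cell libraries taken as 1 group against plasmid, 2 genes passed, both upward (Tcf7l1 and Tcf7l2), the Rbpj difference was -0.015, and 333 and 311 of all genes rose and fell. With at least 100 plasmid reads, which left 20 of the guides, 9 guides passed, 7 up and 2 down. Of 1582 genes 376 then rose and 415 fell, and the slopes of Lef1 (-0.0039), Zfp281 (0.019) and Rbpj (-0.0051) changed sign. Without plasmid library 1, 9 guides passed, 7 up and 2 down, and 404 of all genes rose and 326 fell. Without plasmid library 2, 13 guides passed, 9 up and 4 down, and 403 of all genes rose and 357 fell. In both cases 4 of the 8 genes passed, as they did in the main test. DESeq2's test gave 10 rising guides, with 623 of all genes rising and 454 falling. Without day 8, 13 guides passed, of which 9 rose, and 507 of all genes rose and 385 fell. No share over all guides is given here for these settings, so these guide counts have none to be read against. Rbpj had a slope of -0.00050 without day 12. Leaving out guides, chosen after seeing the data, changed the sign for Tfe3 without guide 2 (-0.0022) and for Rbpj without guide 2 (-0.0069) or 6 (-0.0060). With 1 library per time point, no setting measures the spread between cultures, and a guide at 0 reads could hold up to 3, or 2.86 to 3.27 RPM in the cells. No paired analysis was possible because each time point is 1 library and only the plasmid libraries carry replicate numbers.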

Other observations

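Of the 80 guides to the 8 genes, 10 were left out for fewer than 30 reads in a plasmid library: 4 of Lef1, 2 each of Rbpj and Tcf7l2, and 1 each of Tcf7 and Zfp281. Rbpj guide 4 had 52 and 17 reads in the plasmid libraries and 0, 1 and 0 reads at days 5, 8 and 12. A count of 0 allows up to 3 reads, or 3.27 RPM at day 12, where plasmid library 1 had 15.0. It shares 17 bases with the kept guide 3, which cuts 3 bases away and had 20, 16 and 22 reads at these days. Zfp281 guide 10 had 157 and 27 plasmid reads and 19, 9 and 4 reads at days 5, 8 and 12. Tcf7l2 guide 5 had 98 and 23 plasmid reads and 53, 67 and 48 reads.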
